A study of Mus musculus with 12 samples.

Results

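*Wnt10a*, *Smtn*, *Chchd10*, *Tesc*, *Usp30*, *Xpa* and *Erg* were 7 of the 40840 genes counted in OTII T cells, chosen by symbol because the change between *Il6*-/- and WT recipients had looked strong on one day and absent or opposite on the other. The genotype changes on Day 3, on Day 5 and the difference between them therefore chose the genes, and those values are given below as a description, without a test. *Tesc* did not have the pattern for which it was listed, since it was lower in *Il6*-/- recipients by about the same amount on both days. All 7 genes passed the low-count filter that left 13570 genes, although *Erg* passed it only through the *Il6*-/- group of Day 5.

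OTII cells are CD4+ T cells that carry a transgenic receptor for an OVA peptide. They were transferred into B6 (WT) or *Il6*-/- recipients, the latter lacking *Il6* in the whole animal. All recipients were sensitized i.n. with HDM extract that contained added LPS, together with LPS-free OVA. Donor cells were the same in every group, so any missing IL-6 was missing from the host, and IL-6 made by the transferred cells themselves was not removed by the design. OTII cells were sorted from the mLNs by B220, CD4, CD44 and CD45.1 on Day 3 or Day 5, and RNA was sequenced from 3 replicates per genotype and day, 12 libraries in all. The labels give the tissue as blood, whereas the series description gives the mLN. The days are those of the labels, which begin at day 1, and the text of the paper names the same Day 3 and Day 5 for the RNA-seq. The ages of the animals are not given in the sources used here, nor is it stated whether a replicate was 1 animal or a pool. P values then measure only the spread between these samples, which may be technical.

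The 7 genes belong to different pathways. Wnt ligands such as WNT10A are secreted lipid-modified proteins that bind Frizzled receptors and, through beta-catenin, act with TCF1 (*Tcf7*) and LEF1, both of which are prominent in T cells. CHCHD10 lies in the mitochondrial intermembrane space, and USP30 is a deubiquitinase of the outer mitochondrial membrane that opposes the removal of damaged mitochondria by PINK1 and Parkin. Smoothelin (*Smtn*) binds actin and is best known from smooth muscle, tescalcin (*Tesc*) is a calcium-binding EF-hand protein related to calcineurin B, XPA checks DNA damage in nucleotide excision repair, and ERG is an ETS transcription factor of endothelium and blood stem cells. IL-6 itself signals through gp130 and JAK kinases to STAT3.

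Between 16125947 and 26111657 reads were counted on genes per library. The 7 T cell markers were all detected, and their summed levels in CPM (counts scaled to a common library size) were lower in *Il6*-/- recipients without overlap, at 5620 to 6280 (WT) and 5330 to 5520 (*Il6*-/-) on Day 3 and at 9320 to 9590 (WT) and 8240 to 9000 (*Il6*-/-) on Day 5. Of these markers, *Cd28* was lower on Day 3 (−0.48, edgeR FDR 0.0018, all 12 fits leaving out 1 library) and *Cd3d* on Day 5 (−0.37, FDR 0.037, 4 of 12 fits). The part of these differences in the results below was not tested. Summed B cell markers lay between 5.42 and 10.8 CPM, myeloid and dendritic cell markers between 14.9 and 52.8 CPM, NK and CD8 T cell markers between 56.9 and 87.1 CPM with *Klra8* at 0 in every group, and erythroid cell and platelet markers between 0.235 and 1.04 CPM with *Ppbp* at 0. In bulk RNA, fewer cells that express a gene and less RNA of that gene per cell cannot be told apart.

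**Figure D1:**
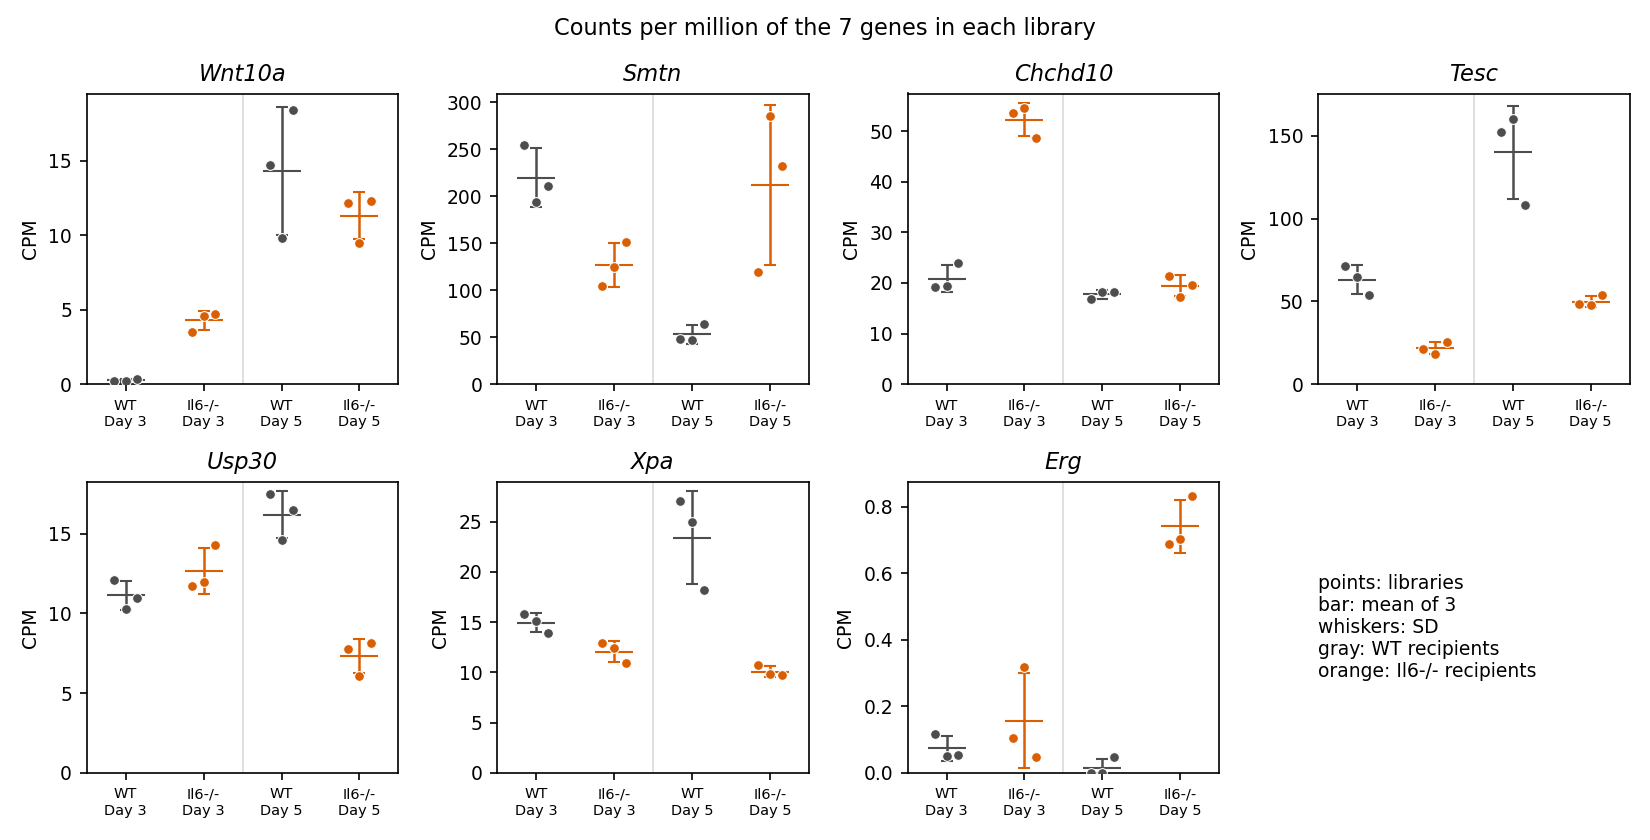
Level of each gene in CPM (y axis, from 0, own scale per gene) in the 12 libraries by recipient genotype and day, with points for libraries, a bar for the mean of 3 and whiskers for the SD. *Wnt10a* and *Chchd10* separate the genotypes on Day 3 but not on Day 5, *Usp30* and *Erg* on Day 5 but not on Day 3, *Xpa* and *Tesc* on both days in the same direction, and *Smtn* in opposite directions.

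*Wnt10a* was nearly silent in a single group, the WT recipients of Day 3. The gene lies at chr1:74830675-74844355 of GRCm39 on the plus strand. The WT libraries of Day 3 had 0.234, 0.198 and 0.38 CPM (4 to 7 counts each), and those of *Il6*-/- recipients had 3.54, 4.61 and 4.74 CPM. On Day 5, the levels were 14.7, 9.82 and 18.4 CPM in WT recipients and 12.2, 9.49 and 12.3 CPM in *Il6*-/- recipients. The genotypes were thus far apart on Day 3 and overlapped on Day 5. The fitted log2 fold change, *Il6*-/- relative to WT, was 3.99 (SE 0.34) on Day 3, a 15.8-fold higher level, and −0.34 (SE 0.22) on Day 5. The WT level of Day 3 rested on 17 counts over the 3 libraries, for which counting error alone gives a coefficient of variation between libraries of 42.0%.

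*Sftpc*, surfactant protein C of the lung epithelium, was lowest in the same group as *Wnt10a*. It had 0 to 0.156 CPM in WT recipients on Day 3 and 0.0528, 9.33 and 0.427 CPM in *Il6*-/- recipients. Its *Il6*-/- counts of Day 3 were 1, 176 and 9, so nearly all came from replicate 2, whereas *Wnt10a* was at a like level in those 3 libraries. The 5 epithelial markers other than *Sftpc* summed to 1.29 to 2.11 CPM (WT) and 0.845 to 4.30 CPM (*Il6*-/-) on Day 3, with the highest sum again in replicate 2. On Day 5 they summed to 2.86 to 9.16 CPM (WT) and 2.93 to 4.63 CPM (*Il6*-/-). The part of epithelial RNA in the *Wnt10a* values was not tested.

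*Chchd10* was high in a single group, the *Il6*-/- recipients of Day 3. It lies at chr10:75768964-75774713 on the plus strand. The *Il6*-/- libraries had 53.6, 54.6 and 48.6 CPM on Day 3 against 19.2, 19.4 and 23.9 CPM in WT recipients. By Day 5, the *Il6*-/- level was 19.5 ± 2.05 CPM (SD, n = 3), and the WT level was 17.7 ± 0.774 CPM (SD, n = 3). The 3 lower groups followed each other closely, each overlapping the next in rank, with all 3 libraries of the highest group above every other library. The log2 fold change was 1.33 (SE 0.11) on Day 3 and 0.13 (SE 0.12) on Day 5. The biological coefficient of variation of *Chchd10* (0.0992) was below the median over all genes tested (0.132), so this gene had the least spread of the 7.

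*Usp30* was lowest in *Il6*-/- recipients on Day 5. It lies at chr5:114203522-114262781 on the plus strand. The WT libraries had 12.1, 10.3 and 11 CPM on Day 3 and 17.5, 14.6 and 16.5 CPM on Day 5. The *Il6*-/- libraries had 11.7, 12 and 14.3 CPM on Day 3 and 7.78, 6.09 and 8.12 CPM on Day 5. The genotypes overlapped on Day 3, and on Day 5 every WT library was above every *Il6*-/- library. The log2 fold change was 0.19 (SE 0.15) on Day 3 and −1.14 (SE 0.16) on Day 5.

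*Xpa* had its lowest level in the same group. It lies at chr4:46154887-46196600 on the minus strand. The WT libraries had 15.8, 15.1 and 13.9 CPM on Day 3 and 27.0, 25.0 and 18.2 CPM on Day 5. The *Il6*-/- libraries had 12.9, 12.4 and 10.9 CPM on Day 3 and 10.7, 9.79 and 9.73 CPM on Day 5. No group overlapped the next in rank, and WT recipients were higher on both days. The log2 fold change was −0.31 (SE 0.15) on Day 3 and −1.21 (SE 0.15) on Day 5.

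The promoters of *Usp30* and *Xpa*, the 2 genes that had their lowest level in the *Il6*-/- group of Day 5, are shown from 250 bases before to 50 bases after the transcription start. They are RefSeq sequences on GRCm38.p6, a build other than the GRCm39 of the counts, at chr5:114100083-114100382 (plus strand) and chr4:46196262-46196561 (minus strand). CpG dinucleotides are in capitals.
Usp30 promoter: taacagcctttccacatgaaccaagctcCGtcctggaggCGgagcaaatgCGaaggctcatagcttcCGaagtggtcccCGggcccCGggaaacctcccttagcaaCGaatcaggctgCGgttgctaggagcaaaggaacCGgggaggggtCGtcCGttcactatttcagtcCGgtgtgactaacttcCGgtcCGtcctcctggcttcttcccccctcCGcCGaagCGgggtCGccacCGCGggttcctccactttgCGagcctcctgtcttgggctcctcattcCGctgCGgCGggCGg
Xpa promoter: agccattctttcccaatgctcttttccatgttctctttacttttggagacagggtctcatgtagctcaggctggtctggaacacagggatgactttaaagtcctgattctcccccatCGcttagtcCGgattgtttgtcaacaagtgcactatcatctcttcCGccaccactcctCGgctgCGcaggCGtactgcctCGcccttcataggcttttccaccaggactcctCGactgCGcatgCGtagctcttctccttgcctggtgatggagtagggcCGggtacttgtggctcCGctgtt
The *Usp30* window has 25 CpGs and the *Xpa* window 12, against a median of 7 over all 32851 mouse promoters of the same length. The palindromic STAT motif TTCNNNGAA, which reads the same on both strands, was in neither, nor in the other 6 promoters found for the genes (1 each for *Smtn*, *Chchd10* and *Tesc*, 3 for *Erg*), and it was in 8.30% of all the promoters. No match says only that these letters are not in these windows. The promoter of *Wnt10a* was not analysed here.

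*Smtn* was the gene whose genotype change turned over between the days. It lies at chr11:3467520-3490612 on the minus strand. On Day 3, it was at 255, 194 and 211 CPM in WT recipients and 105, 125 and 151 CPM in *Il6*-/- recipients. On Day 5, it was at 47.9, 46.9 and 64.4 CPM in WT recipients and 119, 285 and 232 CPM in *Il6*-/- recipients. The genotypes did not overlap on either day, with WT higher on Day 3 and *Il6*-/- higher on Day 5. The log2 fold change was −0.79 (SE 0.23) on Day 3 and 2.00 (SE 0.24) on Day 5. The *Il6*-/- group of Day 5 was the most spread (coefficient of variation 39.8%), and the log2 fold change of that day was 1.75 without its replicate 2 and 2.28 without its replicate 1. Per length, *Smtn* was the highest of the 7 genes on Day 3, with a mean level of 49.3 RPKM (CPM divided by the exon length in kilobases) in WT and 28.5 RPKM in *Il6*-/- recipients.

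Markers of smooth muscle and stromal cells, the tissue for which smoothelin is best known, summed to 1.69 to 3.46 CPM over all libraries. *Des* was at 0 in all groups but the WT recipients of Day 5. *Smtn* had far more counts than all 7 of these markers together in every library. The part of smooth muscle and stromal RNA in the *Smtn* values was not tested.

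*Tesc* was lower in *Il6*-/- recipients on both days and higher on Day 5 than on Day 3 in both genotypes. It lies at chr5:118165808-118202091 on the plus strand. WT libraries had 71.1, 64.5 and 54.1 CPM on Day 3 and 152, 160 and 108 CPM on Day 5. *Il6*-/- libraries had 21.0, 18.4 and 25.7 CPM on Day 3 and 48.4, 47.6 and 53.6 CPM on Day 5. The 4 groups were separate from each other, in the order WT Day 5, WT Day 3, *Il6*-/- Day 5, *Il6*-/- Day 3. The log2 fold change was −1.54 (SE 0.15) on Day 3 and −1.49 (SE 0.15) on Day 5, a difference of −0.05 (SE 0.21). On Day 5, *Tesc* was the highest of the 7 genes per length in WT recipients (22.6 RPKM), whereas *Smtn* was the highest in *Il6*-/- recipients (47.6 RPKM).

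*Erg* had at most 6 counts per library in 3 of the 4 groups, and at most 3 in both WT groups. It lies at chr16:95160028-95387452 on the minus strand. It had 3, 1 and 1 counts in WT and 2, 6 and 1 counts in *Il6*-/- recipients on Day 3. On Day 5, it had 0, 0 and 1 counts in WT and 13, 12 and 16 counts in *Il6*-/- recipients (0.741 ± 0.0796 CPM, SD, n = 3). All 3 *Il6*-/- libraries of Day 5 were above every other library. The ratio of *Il6*-/- to WT at equal depth was 44.7 on Day 5 (95% interval 7.59 to 1810, from 41 against 1 counts) and 1.96 on Day 3 (0.591 to 7.46, from 9 against 5 counts). These intervals cover counting error only and show how imprecise the ratios are. They do not allow for the choice of *Erg* by these same changes, so they are not a test. The fitted log2 fold changes, 0.96 (SE 0.88) and 5.03 (SE 0.96), depend on the prior count, and the Day 3 value became −0.02 without *Il6*-/- replicate 2, which held 6 of the 9 counts.

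Endothelial markers other than *Pecam1*, the cell type for which ERG is best known, summed to 2.61 to 3.65 CPM on Day 3 and to 0.305 to 0.879 CPM on Day 5. On Day 5, the sums were 0.305 to 0.831 CPM (WT) and 0.416 to 0.879 CPM (*Il6*-/-), so the genotypes overlapped. *Tek* and *Emcn* were at 0 in every group. The part of endothelial RNA in the *Erg* values was not tested. *Pecam1*, which T cells also carry, was lower in *Il6*-/- recipients on Day 3 (means of 116 and 85.5 CPM, edgeR FDR 0.0026, all 12 fits leaving out 1 library) and had means of 141 (WT) and 142 (*Il6*-/-) CPM on Day 5 (FDR 0.97).

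**Figure D2:**
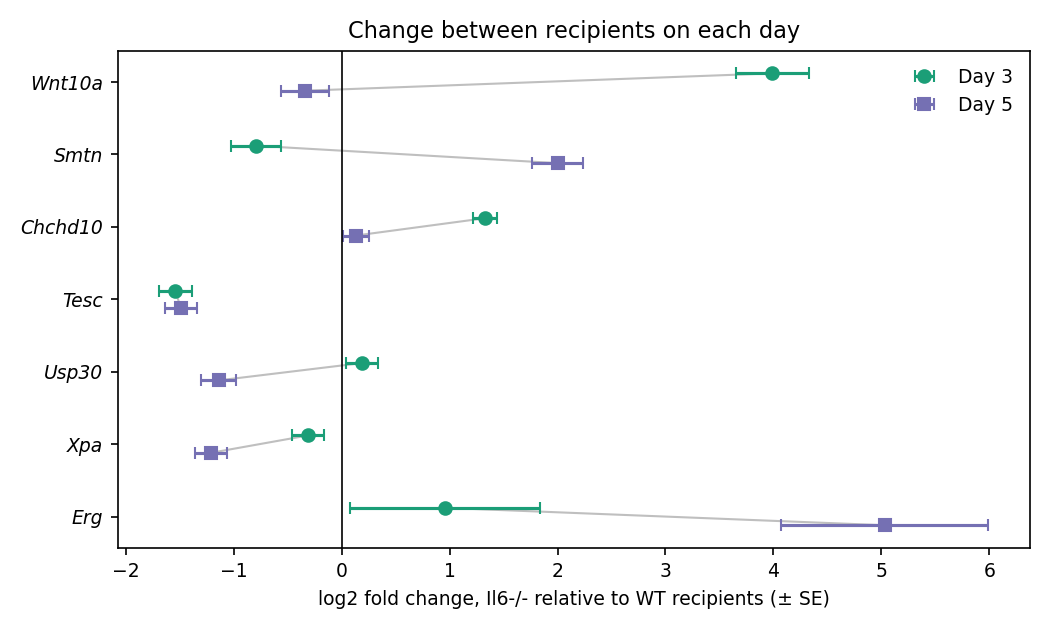
Log2 fold change of *Il6*-/- relative to WT recipients (x axis, ± SE) for each gene on Day 3 (circles) and Day 5 (squares), joined by a line, with zero as a vertical line. *Smtn* crosses from −0.79 to 2.00, the 2 values of *Tesc* lie together at −1.54 and −1.49, and *Erg* has the widest bars because it rests on few counts.

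Over all genes tested, 2.74% changed between the genotypes at least 2-fold with an FDR under 0.05 on Day 3 and 1.14% on Day 5, and 4.92% had an FDR under 0.05 for the difference between the days. Calls of the 7 genes in these comparisons are not counted here, because the comparisons chose the genes. The genotypes did not overlap for 5 of the 7 genes on each day, against 36.2% of all genes on Day 3 and 19.6% on Day 5. The counts of genes without overlap follow from how the genes were chosen. The difference in log2 fold change, Day 3 minus Day 5, was 4.32 (SE 0.42) for *Wnt10a*, −2.79 (SE 0.34) for *Smtn*, 1.33 (SE 0.22) for *Usp30*, 1.19 (SE 0.16) for *Chchd10*, 0.90 (SE 0.21) for *Xpa* and −4.08 (SE 1.44) for *Erg*.

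The change from Day 3 to Day 5, averaged over both genotypes, was not used to choose the genes and could be tested, with a limit for *Erg*. That gene passed the low-count filter only through a group that is part of this comparison. *Wnt10a* rose by 3.56 on the log2 scale (SE 0.21, edgeR FDR 9.1e-10), and *Tesc* rose by 1.17 (SE 0.11, FDR 1e-07). On this average, *Chchd10* fell by 0.83 (SE 0.08, FDR 2.7e-07), and *Smtn* fell by 0.66 (SE 0.17, FDR 0.0025). Neither average describes both genotypes. *Smtn* had −2.05 in WT but 0.74 in *Il6*-/- recipients, and *Chchd10* had −0.23 in WT and −1.42 in *Il6*-/- recipients. *Xpa* (0.19, SE 0.11, FDR 0.11) and *Usp30* (−0.12, SE 0.11, FDR 0.32) did not pass. Nor did *Erg* (0.18, FDR 0.98), for which the few counts cannot decide whether it changed. No SE is given for this value, because an SE taken from the root of F is not reliable when F is very small. Of the 7 genes, 2 passed with a change of at least 2-fold, both higher, beside 26.1% of all genes (15.7% higher and 10.3% lower), and 4 passed at an FDR under 0.05 with no limit on size, beside 70.7% of all genes. With upper-quartile scaling, which moved the median of all genes in this comparison from 0.092 to 0.303, *Usp30* changed sign to 0.09, *Xpa* passed at 0.41 (FDR 0.0027), and the genes past both limits were 2902 higher and 1011 lower in place of 2135 and 1403. *Xpa* also passed without WT Day 5 replicate 3 (0.27, FDR 0.018).

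Within each genotype, the same change is a description, since it shares the values that chose the genes. *Wnt10a* was 52.6-fold higher on Day 5 than on Day 3 in WT recipients (log2 5.72, SE 0.33) and 2.63-fold higher in *Il6*-/- recipients (log2 1.40, SE 0.24). The WT fold is imprecise, since its Day 3 level rested on 17 counts over 3 libraries. *Smtn* had a log2 fold change of −2.05 (SE 0.24) in WT and 0.74 (SE 0.23) in *Il6*-/- recipients, which are opposite directions. *Chchd10* stayed near its level in WT recipients (−0.23, SE 0.12) and was lower on Day 5 in *Il6*-/- recipients (−1.42, SE 0.12). *Usp30* was higher on Day 5 in WT (0.54, SE 0.15) and lower in *Il6*-/- recipients (−0.79, SE 0.16), and *Xpa* had values of 0.65 (SE 0.15) and −0.26 (SE 0.15). *Tesc* had 1.14 (SE 0.15) and 1.2 (SE 0.15), near-equal values in both genotypes. For *Erg*, no fold is given in WT recipients, where both days were at or under 3 counts per library.

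**Figure D3:**
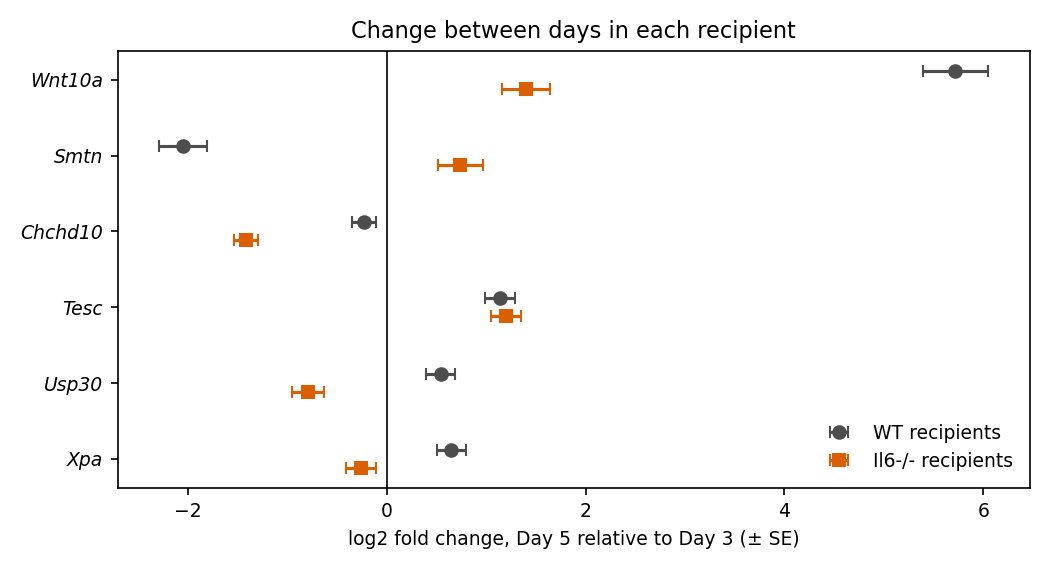
Log2 fold change of Day 5 relative to Day 3 (x axis, ± SE) in WT (circles) and *Il6*-/- recipients (squares) for 6 genes, with zero as a vertical line; *Erg* is left out because both WT groups were at the floor. *Tesc* has overlapping bars (1.14 and 1.2), and *Smtn*, *Usp30* and *Xpa* lie on opposite sides of zero in the 2 genotypes.

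Exons of other genes overlap those of 5 of the 7 genes on the opposite strand, and the reads were counted without strand, so reads in the shared bases cannot be told apart. *Smtn* shares 810 bases with the lncRNA *Gm11946* and 32 bases with *Selenom*. *Gm11946* differed between the days in the same direction as *Smtn*, with group means in CPM of 1.58 (WT) and 0.627 (*Il6*-/-) on Day 3 and of 0.248 (WT) and 2.12 (*Il6*-/-) on Day 5. Its difference between the days was −4.35 (SE 1.04, edgeR FDR 0.029, held in 4 of 12 fits leaving out 1 library), and *Selenom* had −2.33 (SE 0.62, FDR 0.045, 1 of 12 fits). Both levels were far below that of *Smtn* in every group. *Xpa* shares 1494 bases with *Ncbp1*, which had log2 fold changes of 0.17 (FDR 0.25) and 0.04 (FDR 0.84) on the 2 days. *Usp30* shares 2214 bases with *Alkbh2*, which had 0.43 (FDR 0.19) and −0.20 (FDR 0.65). *Chchd10* shares 155 bases with *Mmp11* (−0.83, FDR 0.45, and 0.84, FDR 0.50). *Wnt10a* shares 100 bases with *Gm32099*, which had at most 4 counts in a library.

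Apart from overlapping genes, the nearest tested genes on either side of the 7 genes had FDRs of 0.12 to 0.99 over both days. They were *Ttll4* and *Nhej1* beside *Wnt10a*, *8430429K09Rik* and *Tug1* beside *Smtn*, *Smarcb1* and *Gm5134* beside *Chchd10*, *Fbxo21* and *Fbxw8* beside *Tesc*, *Ssh1* and *Ung* beside *Usp30*, *Tstd2* and *Trmo* beside *Xpa*, and *Gm41507* and *Ets2* beside *Erg*. With the replicate block, *Fbxo21* passed on Day 5 (0.39, FDR 0.022), and *Ttll4* (0.43, FDR 0.031) and *Ung* (0.44, FDR 0.023) passed on Day 3. For the difference between the days, *Ttll4* (0.73) and *Fbxo21* (−0.54) passed with the block, each at an FDR of 0.023. A p that misses the threshold does not show that these genes were alike in both genotypes.

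Other genes of the 7 genes' pathways were compared in 9 lists with 142 tested genes. On Day 3, 9 were higher and 13 lower in *Il6*-/- recipients at an FDR under 0.05 (15.5% of the lists, 13.7% of all genes). On Day 5, 3 were higher and 3 lower (4.23%, 4.61% of all genes), and with the replicate number as a block 22 passed (15.5%, 11.7% of all genes in that fit). In the comparison of the genotype change between the days, 3 passed with a higher and 4 with a lower value on Day 3 (4.93%, 4.92% of all genes).

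**Figure D4:**
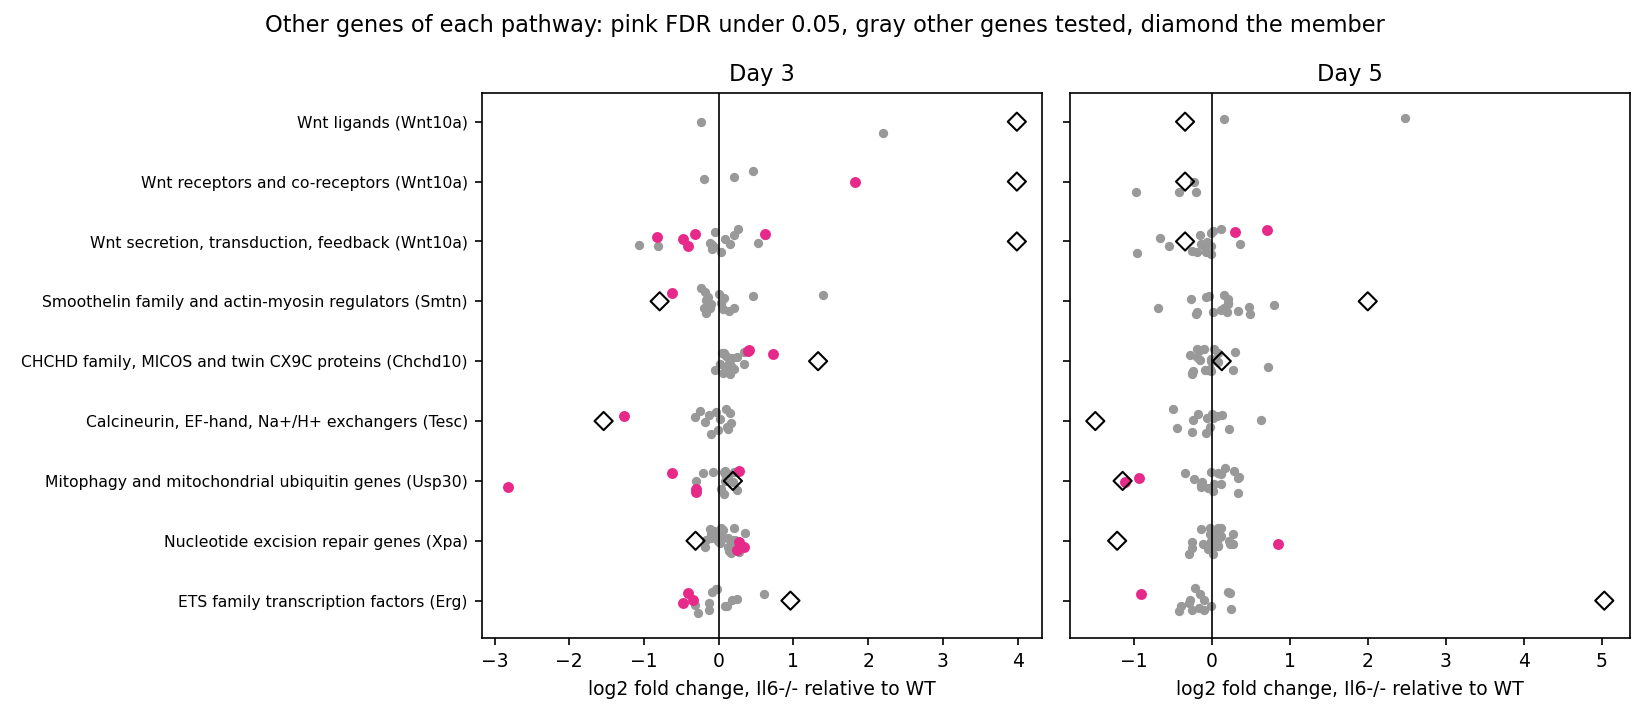
Log2 fold change of *Il6*-/- relative to WT recipients (x axis) of the tested genes of the 9 lists on Day 3 (left) and Day 5 (right), pink for an FDR under 0.05, gray for the others, and a diamond for the member to which the list belongs. More pink points lie left of zero (13) than right (9) on Day 3, and 3 lie on each side on Day 5.

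Of 18 Wnt ligands other than *Wnt10a*, 2 had enough counts to be tested. *Wnt3* had log2 fold changes of −0.24 (FDR 0.94) on Day 3 and 0.16 (FDR 0.94) on Day 5. *Wnt10b* had means of 0.148 (WT) and 0.682 CPM (*Il6*-/-) on Day 3 (FDR 0.21) and of 0.0346 and 0.213 CPM on Day 5 (FDR 0.40), where WT libraries were under the floor. Among 4 tested receptors, *Ryk* was higher on Day 3 (1.82, SE 0.58, FDR 0.047), a call that held in 2 of 12 fits leaving out 1 library. Of 20 tested genes of secretion, transduction and feedback, 4 were lower and 1 higher on Day 3, with a list median of −0.07 beside 0.01 over all genes. *Lef1* fell from 273 ± 16.7 (WT) to 205 ± 7.21 CPM (*Il6*-/-, SD, n = 3, edgeR FDR 0.0029), *Tcf7* from 1430 ± 117 to 1150 ± 34.0 CPM (FDR 0.0069), and *Axin2*, a feedback inhibitor induced by beta-catenin, from 10.6 ± 0.265 to 6.01 ± 0.388 CPM (FDR 0.010). The *Lef1* and *Axin2* calls held in each of the 12 fits leaving out 1 library, and that of *Tcf7* was lost without WT Day 3 replicate 2 (FDR 0.054). The Day 5 values were −0.06 for *Lef1* (FDR 0.72), −0.18 for *Tcf7* (FDR 0.14) and −0.06 for *Axin2* (FDR 0.9). None of these 3 genes passed for the difference between the days (edgeR FDR 0.087, 0.49 and 0.12). With the replicate block, *Tcf7* passed on Day 5 (−0.18, FDR 0.036) and *Axin2* for the difference (−0.79, FDR 0.047). A link of these genes to *Wnt10a* was not tested. On Day 5, *Wls*, which escorts Wnt proteins to the cell surface, rose from 16.6 ± 2.11 to 27.2 ± 1.83 CPM (FDR 0.010, lost without WT Day 5 replicate 2 at 0.058). It was also the gene that was higher on Day 3, from 8.02 to 12.4 CPM (0.62, FDR 0.012, 10 of 12 fits), and its difference between the days was −0.09 (FDR 0.86). *Pygo2*, a cofactor of beta-catenin, had 0.30 on Day 5 (FDR 0.036, held in 4 of 12 fits).

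Of 21 tested CHCHD, MICOS and twin CX9C genes, 3 were higher on Day 3 in *Il6*-/- recipients, as *Chchd10* was. *Chchd4*, the receptor of the import pathway that brings twin CX9C proteins into the intermembrane space, rose from 36.3 ± 2.96 to 60.0 ± 3.24 CPM (SD, n = 3, edgeR FDR 0.00048) and held in all 12 fits. *Apoo*, a MICOS subunit, rose from 43.8 ± 0.859 to 57.8 ± 3.19 CPM (FDR 0.0081, all 12 fits), and *Chchd1*, a protein of the mitochondrial ribosome, had 0.39 (FDR 0.045, 4 of 12 fits). The list median was 0.15 on Day 3 and −0.04 on Day 5, each beside 0.01 over all genes. On Day 5, *Chchd4* had −0.01 (FDR 0.98), and its difference between the days was 0.74 (SE 0.15, FDR 0.016), which missed the threshold without WT Day 3 replicate 2 (FDR 0.057). *Chchd10*'s closest paralog in the list, *Chchd2*, had 0.25 (FDR 0.076) on Day 3 and −0.04 (FDR 0.84) on Day 5.

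Of 19 tested mitophagy and mitochondrial ubiquitin genes, 1 was higher and 4 lower on Day 3, and 2 were lower on Day 5. *Pink1*, the kinase that marks damaged mitochondria and whose pathway USP30 opposes, fell on Day 5 from 89.5 ± 14.6 to 41.5 ± 9.22 CPM (log2 fold change −1.10, SE 0.17, edgeR FDR 0.0028), and held in all 12 fits. It had also fallen on Day 3 (−0.62, FDR 0.028, 8 of 12 fits), and its difference between the days did not pass (0.48, FDR 0.29). *Marchf5*, a mitochondrial ubiquitin ligase, had −0.93 (FDR 0.042) on Day 5 and held in 4 of 12 fits. On Day 3, *Usp35*, a deubiquitinase also tied to mitochondria, fell from 1.22 ± 0.633 to 0.169 ± 0.160 CPM (FDR 0.0092, all 12 fits). Its *Il6*-/- mean lay near the floor of 3 counts (0.142 to 0.159 CPM in those libraries). Leaving out 1 library, its log2 fold change ranged from −3.56 to −2.27. The autophagy receptors *Sqstm1* and *Tax1bp1* each had −0.30 on Day 3 (FDR 0.0081 and 0.0092), both lost without *Il6*-/- Day 3 replicate 1 (FDR 0.052 and 0.053). The list median was 0.07 on Day 3 and 0.02 on Day 5.

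Of 29 tested nucleotide excision repair genes, 3 were higher on Day 3, and 1 was higher on Day 5, when *Xpa* was lower. On Day 3, *Gtf2h1* (0.34, FDR 0.028), *Cdk7* (0.25, FDR 0.031) and *Ccnh* (0.27, FDR 0.043), all subunits of the TFIIH complex, passed by edgeR, in 8, 5 and 3 of the 12 fits leaving out 1 library. On Day 5, *Lig1*, a DNA ligase, rose from 50.2 ± 7.81 to 90.5 ± 33.2 CPM (SD, n = 3, FDR 0.022, 9 of 12 fits). The damage sensors *Xpc* (−0.29, FDR 0.27) and *Ddb2* (−0.02, FDR 0.97) and the nuclease genes *Ercc1* (0.07, FDR 0.79) and *Ercc4* (−0.05, FDR 0.86) did not pass on Day 5.

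Of 18 tested actin and myosin regulators, *Flna*, filamin A, a crosslinker of actin, fell on Day 3 from 2470 ± 118 to 1600 ± 150 CPM (SD, n = 3, edgeR FDR 0.021, 8 of 12 fits). It had 0.48 (FDR 0.11) on Day 5, and 0.45 (FDR 0.0013) with the replicate block. Its difference between the days, −1.10 (SE 0.23, FDR 0.017), had the same sign as that of *Smtn* and was lost without *Il6*-/- Day 3 replicate 2 (FDR 0.058). *Cnn2*, calponin 2, had a difference of −0.34 (SE 0.09, FDR 0.039, 4 of 12 fits). The list median was −0.11 on Day 3 and 0.16 on Day 5.

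Of 14 tested genes of calcineurin, related EF-hand proteins and sodium-proton exchangers, *Slc9a9*, an exchanger of endosomes, fell on Day 3 from 58.6 ± 2.84 to 24.3 ± 4.52 CPM (SD, n = 3, edgeR FDR 1.4e-05). Its difference between the days was −1.34 (SE 0.17, FDR 0.0013), and both calls held in all 12 fits. *Chp1*, which encodes the related calcineurin B homologous protein, had −0.14 (FDR 0.34) on Day 3 and 0.14 (FDR 0.40) on Day 5. The list median was −0.03 on Day 3 and −0.04 on Day 5.

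Of 15 tested ETS factors, 3 were lower on Day 3 and 1 on Day 5, when *Erg* was higher and the list median was −0.17. *Ets1*, which is abundant in T cells, fell on Day 3 from 1170 ± 29.7 to 841 ± 49.5 CPM (SD, n = 3, edgeR FDR 0.00045), and *Elf1* fell from 235 ± 3.12 to 185 ± 5.00 CPM (FDR 0.003), both in all 12 fits. *Fli1*, the closest relative of *Erg*, fell from 92.4 ± 3.08 to 69.3 ± 10.9 CPM (FDR 0.012, 10 of 12 fits) and had −0.15 (FDR 0.45) on Day 5. *Elk4* fell on Day 5 from 42.3 ± 11.4 to 22.7 ± 1.46 CPM (FDR 0.010, 10 of 12 fits).

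For each of the 7 genes, the 3 tested genes with the most similar level over the 12 libraries were found by the Pearson correlation of log2 CPM. The libraries fall into 4 groups, so the correlation mostly follows the group means and is a description. The genotype changes of the genes found this way follow in part from that choice and are a description too. *Smtn* was followed most closely by *Myo6*, *Clcn6* and *Ccr4* (r of 0.925, 0.918 and 0.914), and 5 genes exceeded 0.9. *Myo6*, an actin motor, had log2 fold changes of −0.91 on Day 3 and 2.33 on Day 5. Its group means were 8.38, 4.45, 1.23 and 6.21 CPM in WT and *Il6*-/- recipients of Day 3 and then of Day 5. *Erg* was closest to *Il17rb*, *Dgcr6* and *Chdh* (0.902, 0.893 and 0.886), of which *Il17rb*, a receptor chain for IL-25, had 0.36 on Day 3 and 1.21 on Day 5. *Usp30* was closest to *Ttc14*, *Nenf* and *Fam122a* (0.917, 0.897 and 0.889), and *Xpa* to *Peli1*, *Nsd3* and *Itpk1* (0.951, 0.948 and 0.947). Many more genes followed the others: 105 genes exceeded 0.9 with *Chchd10* (*Mrps35*, *Cnbp* and *Mettl1* first, 0.983, 0.976 and 0.968), 63 with *Tesc* (*Smap2* 0.966, *Timp2* 0.964 and *Arntl* 0.964) and 62 with *Wnt10a* (*Slc52a2* 0.967, *Eci1* 0.964 and *Tnfrsf18* 0.963).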

How the data were processed

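Poly(A) RNA of sorted OTII cells (12 libraries) was prepared with an ultra-low input protocol and sequenced as 50 bp single reads. Per the labels and the paper, the authors used Trim Galore 0.4.4 for trimming, STAR 2.5.2a for alignment (GRCm39) and HTSeq 0.6.1p1 for counting without strand. The deposited counts are raw reads per gene symbol, and rows that name no gene held 37.8% to 47.5% of a library's reads and were left out of library sizes and tests. A deposited log2 CPM table was not used.

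Counts were fitted in R 4.3.3 with edgeR 4.0.16 (filterByExpr, TMM scaling, quasi-likelihood test, 1 coefficient per group, 12 libraries). P values were adjusted by Benjamini-Hochberg over 13570 genes. The steps were tested on simulated data. Groups and replicate numbers came from the sample titles. CPM use TMM-scaled library sizes. SE is the log2 fold change divided by the root of F. Counts of at most 3 per library were taken as the floor, and intervals of count ratios are exact binomial. Replicate pairs differed by more than sampling noise (chi-square per gene of 5.54 to 31.5). Deviations of same-numbered libraries of the 2 genotypes had correlations of 0.24, 0.21 and 0.13 on Day 5 and of 0.03, 0.06 and 0.03 on Day 3. Those of Day 5 exceeded the limit of 0.1, but the labels do not say that same-numbered samples were paired. The main fit has no block, and the block is given as an alternative.

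The annotation for positions and exon overlaps was GENCODE vM39 (GRCm39), which held 32487 of 40840 symbols. Promoters came from RefSeq (GRCm38.p6), which matched 6 of the 7 genes.

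The 7 genes and all lists were chosen with earlier results of these data known. The genes named are the 7, the 3 most correlated with each, and the nearest tested gene without overlap on each side. Up to 3 genes per list and day with the smallest p among those with an FDR under 0.05 are named too. Genes with overlapping exons, genes named for the difference between days, *Xpc*, *Ddb2*, *Ercc1*, *Ercc4*, *Sftpc*, *Pecam1*, *Cd28*, *Cd3d*, *Wnt3*, *Wnt10b*, *Chchd2* and *Chp1* were added after their values were seen. Alternatives were RLE and upper-quartile scaling, no low-count filter, DESeq2 1.42.0, a filter of more than 1 CPM in 3 or more libraries, limma-voom (3.58.1), the libraries of a day alone, a block for the replicate number of each day, and each library left out.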

Additional observations from a re-analysis of the deposited data

Results flagged for a closer look

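For *Smtn*, the genotypes did not overlap on either day and were in opposite order, with a difference in log2 fold change, Day 3 minus Day 5, of −2.79. No test of this difference is given, since it chose the gene. The other genes below were named because their genotype change differed between the days by edgeR at an FDR under 0.05, among 4.92% of all genes. They are also described in part above, and the most correlated genes are not independent of the gene they follow. The FDRs of those correlated genes therefore say how they were flagged and are not a separate test.

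In the lists, the difference was −1.34 for *Slc9a9* (FDR 0.0013), 0.74 for *Chchd4* (FDR 0.016), −1.10 for *Flna* (FDR 0.017), −0.39 for *Ets1* (FDR 0.038, 5 of 12 fits leaving out 1 library), −0.34 for *Cnn2* (FDR 0.039), 0.40 for *Ppp3r1*, the regulatory subunit of calcineurin (FDR 0.044, 2 of 12 fits), and 1.28 for *Znrf3*, a ligase that removes Frizzled receptors (FDR 0.045, 1 of 12 fits). *Ppp3r1* had log2 fold changes of 0.15 and −0.25 on the 2 days, and *Znrf3* had 0.62 and −0.66.

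Of the genes that followed the 7 most closely, *Il17rb* had −0.85 (FDR 0.005) and *Myo6* −3.24 (FDR 0.0081), both in all 12 fits. *Cnbp* had 0.39 (FDR 0.015, 11 of 12 fits). The others held in at most 5 of 12 fits: *Ttc14* 0.67 (FDR 0.032), *Clcn6* −0.99 (FDR 0.035), *Chdh* −0.72 (FDR 0.036), *Eci1* 0.52 (FDR 0.037), *Peli1* 1.02 (FDR 0.043) and *Ccr4* −0.86 (FDR 0.050, just under the threshold before rounding). The genes with exons over *Smtn* had −4.35 (*Gm11946*, FDR 0.029, 4 of 12 fits) and −2.33 (*Selenom*, FDR 0.045, 1 of 12 fits). With 3 libraries per group, no library was tested for standing apart from its group.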

How the results depend on the processing

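The 2 genes past both limits between the days, *Wnt10a* and *Tesc*, were 2 in every alternative run. The count of genes past the limits between the genotypes was 372 on Day 3 (257 to 383 leaving out 1 library) and 155 on Day 5 (73 to 299, lowest without WT Day 5 replicate 1 and highest without WT Day 5 replicate 3), and 668 for the difference between the days (235 to 943, lowest without WT Day 3 replicate 2 and highest without WT Day 5 replicate 3). Between the days there were 3538 (3439 to 3812). List genes past the threshold were 22 on Day 3 (10 to 24), 6 on Day 5 (2 to 12) and 7 for the difference (2 to 11). With no low-count filter, Day 5 had 259 genes and 15 list genes, and the difference 1300 and 12. DESeq2 gave 13 list genes on Day 5, and 1132 genes and 13 list genes for the difference. The libraries of the day alone gave 34 list genes on Day 3. With the replicate number as a block, Day 3 had 409 genes and Day 5 had 217, and the difference had 1564 genes, with 22 list genes on Day 5 and 18 for the difference. Of 244 tested values of named genes refitted with the block, 1 call was lost (*Ryk* on Day 3, FDR 0.063) and 22 were gained. Among those gained were *Ttll4* (FDR 0.031), *Ung* (FDR 0.023) and *Chchd2* (FDR 0.017) on Day 3, when the correlations of same-numbered libraries were under 0.1. Of the 7 genes, *Erg* moved most: its log2 fold change on Day 5 was 6.88 without WT Day 5 replicate 3 and 4.41 by limma-voom, and it was not tested under the filter of more than 1 CPM. The difference of *Chchd10* was 1.05 and that of *Usp30* 1.15 without *Il6*-/- Day 5 replicate 2. Over all alternatives, 4378 tested values of named genes kept their side of the threshold, 290 no longer passed and 98 newly passed. No direction that had passed turned over. Values that passed in neither fit are among those that kept their side, so these counts do not give the share of calls that held. The genotype changes of the 7 genes, compared by size alone, moved by less than the spread between replicates in 400 fits and by more in 9. The cause was not tested. Depth limits *Erg*, at or under 3 counts per library in WT recipients, and *Wnt10a* in WT recipients on Day 3.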
